A study of Homo sapiens with 6 samples.

Results

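The genes described here are 42 genes of homologous recombination and of the Fanconi anemia pathway, followed in RNA-seq of HCT116 cells, a human colorectal carcinoma line with defective mismatch repair, with and without knockdown of NONO. They were chosen by name for their known part in these pathways, with earlier results of these data known. They are 42 of the 62492 genes listed in the deposited files. All 42 had enough counts for the test. Cells of the siControl group received a control duplex and cells of the siNONO group a single siRNA duplex against NONO, both at 20 nM by lipid transfection, on the same unedited HCT116 background. Because only 1 duplex was used, loss of NONO and any other effect of that duplex cannot be told apart. Each group had 3 libraries, labelled Set 1 to Set 3, with 1 siControl and 1 siNONO library in each Set. The series calls the Sets biological replication without saying whether they were separate cultures, so the p-values measure the spread between these libraries.

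Homologous recombination repairs a broken chromosome by copying the intact sister strand, and it is therefore used mostly in S and G2 phase. The broken end is trimmed by nucleases, made ready by the BRCA proteins for strand exchange, and pushed into the sister duplex, after which the joint molecule is dissolved or cut. The Fanconi anemia pathway acts upstream of this at crosslinked DNA. A nuclear core complex and its E2 enzyme attach ubiquitin to the FANCD2 and FANCI clamp, and the marked clamp calls in nucleases that release the crosslink. NONO, a paraspeckle RNA-binding protein, is itself studied in DNA repair and in the control of transcription and RNA processing.

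The libraries held between 21765393 and 32659002 estimated counts, with a biological coefficient of variation of 3.51% across genes. Levels below in CPM are counts scaled to library size with edgeR's TMM factors, and levels in TPM are the authors' values, scaled also for transcript length. NONO (ENSG00000147140.16_8, chrX:70474664-70521372, plus strand, GRCh37) had 496, 495 and 516 CPM in the siControl libraries of Sets 1, 2 and 3, and 89.5, 95.5 and 100.4 CPM in the siNONO libraries. Its level in siNONO was 18.9% of siControl (log2 fold change -2.40, standard error 0.0337, Benjamini-Hochberg adjusted p = 2.47e-13 over 17000 genes in the quasi-likelihood test of edgeR), so the libraries matched their labels. The epithelial markers EPCAM, KRT8, KRT18, KRT19 and CDH1 were at 33.1 TPM or more in every library and CDX2 at 7.46 to 8.71 TPM, while CDX1 was listed at 0 and VIL1 at no more than 0.17 TPM. Markers of leukocytes, fibroblasts and endothelium were at 0.41 TPM or less except COL1A1, at 16.2 to 19.0 TPM with its partner COL1A2 listed at 0.

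Most of the recombination and Fanconi genes were lower after NONO knockdown. Of the 42, 28 fell, 3 rose and 11 were called neither way by edgeR, with 0.05 as the largest adjusted p allowed. Over all 17000 genes tested by the same rule, 23.4% fell and 23.2% rose, and 46.6% were called in either direction, against 66.7% of the 42 called lower and 7.14% called higher. The median log2 fold change of the 42 was -0.43, with quartiles of -0.64 and -0.09 and a range from -0.81 to 0.60, while the median over all genes tested was -0.00 with quartiles of -0.22 and 0.21. Within Sets 1, 2 and 3 the median of the 42 was -0.44, -0.42 and -0.39. A decrease of at least 0.5 on the log2 scale that also passed the test was seen for 17 of the 42, and for 6.29% of all genes tested. In CPM, 28 of the 42 had every siNONO library below every siControl library and 3 had every siNONO library above, and each of these patterns was found in 23.9% of all genes tested.

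**Figure D1:**
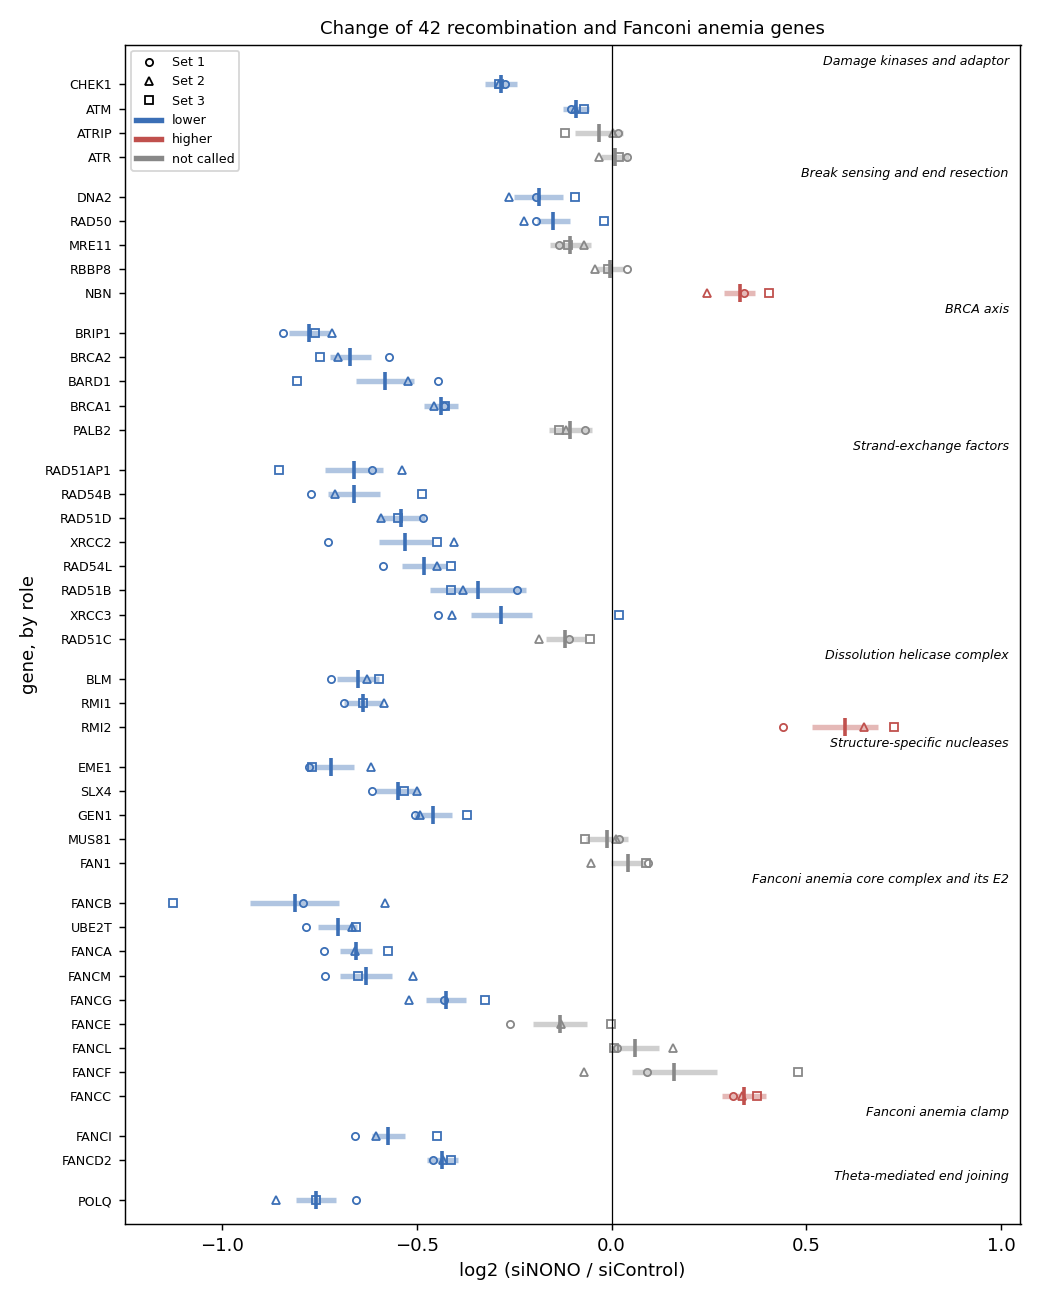
Log2 fold change (siNONO against siControl) of each of the 42 genes, grouped by role, with a tick at the edgeR estimate, a pale bar of 1 standard error either side, and a circle, triangle and square for the log2 ratio within Sets 1, 2 and 3. Blue marks the 28 genes called lower, red the 3 called higher and grey the 11 called neither way, from FANCB at -0.81 to RMI2 at 0.60.

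Genes of S phase and of G2 and mitosis were lower in the same libraries. Among the cell-cycle genes that Seurat uses, with the recombination and other pathway genes of this report taken out, 34 of 38 S-phase genes and 51 of 54 G2/M genes fell, and 0 rose in either list by edgeR. Their median log2 fold changes were -0.43 and -0.65. The summed level of the S-phase genes was 3310 to 3596 CPM in siControl and 2369 to 2512 CPM in siNONO, and that of the G2/M genes 7491 to 7936 CPM and 4817 to 5167 CPM. The summed level of the 42 recombination and Fanconi genes went from 1708, 1763 and 1660 CPM in siControl to 1388, 1423 and 1394 CPM in siNONO, without overlap of the groups. BLM and RAD51AP1 are themselves in the Seurat S-phase list, and none of the 42 is in the G2/M list. In bulk RNA, fewer cells in S and G2 phase and less of these transcripts in each cell cannot be told apart, and the part of the cell-cycle genes' change in the values below was not tested.

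Promoter sequence was read for 37 of the 42 genes from RefSeq (250 bases before to 50 after each start site, GRCh38.p14), and windows are printed here at their position in GRCh37, found by exact match. RefSeq windows of FANCI, NBN, RMI2, RAD54B and DNA2 were not used here. E2F factors and the complexes that read the cell-cycle homology region drive many S-phase and G2/M genes, so their core letters were searched on both strands. The words do not contain one another. The E2F words were TTTGGCGC, TTTCCCGC, TTTGCCGC and TTTCGCGC, and 6 of 37 windows (16.2%) held 1 or more of them, against 6.49% of the 11669 tested genes with a window and 8.76% of those called lower. All 6 belonged to genes called in the count test, 5 of 25 called lower and FANCC, which was called higher, while 0 of the 11 windows of uncalled genes held one. Of all tested genes called higher, 5.63% held one. At a share of 6.49% over all tested genes, 0 of 11 windows does not set the uncalled genes apart. The cell-cycle homology word TTTGAA was in 5 of 37 windows (13.5%), as in 13.5% of all tested genes with a window. The stretches below show all E2F words in these 37 windows, because they occur in genes of both directions, in capitals and written 5′ to 3′ on each gene's strand.
FANCA (chr16:89883198-89883249, minus strand, upstream of the start site): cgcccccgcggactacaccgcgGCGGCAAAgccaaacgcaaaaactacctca
RMI1 (chr9:86595666-86595717, plus strand, upstream of the start site): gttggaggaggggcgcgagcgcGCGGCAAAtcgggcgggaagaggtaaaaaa
XRCC2 (chr7:152373187-152373216, minus strand, past the start site): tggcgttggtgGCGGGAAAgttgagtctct
GEN1 (chr2:17935126-17935155, plus strand, across the start site): cagttgcggggTTTCGCGCcgccggagtct
FANCD2 (chr3:10068108-10068137, plus strand, across the start site): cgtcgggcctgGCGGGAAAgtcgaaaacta
FANCC, distal (chr9:98080134-98080185, minus strand, upstream of the start site): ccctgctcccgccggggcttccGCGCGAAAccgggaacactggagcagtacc
FANCC, proximal (chr9:98080008-98080059, minus strand, upstream of the start site): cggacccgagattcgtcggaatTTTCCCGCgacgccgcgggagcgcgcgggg

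The cell-cycle homology word is shown, again in capitals, for each of the 5 genes whose window held it. Of these genes 4 were called lower (BRIP1, POLQ, UBE2T and ATM) and FANCC was called higher, and POLQ held the word once more just past its start site. A word in a window describes these letters only and is not a measured binding site.
BRIP1 (chr17:59941102-59941139, minus strand): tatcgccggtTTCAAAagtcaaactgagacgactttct
POLQ (chr3:121265038-121265085, minus strand): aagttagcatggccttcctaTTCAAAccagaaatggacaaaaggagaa
UBE2T (chr1:202311190-202311239, minus strand): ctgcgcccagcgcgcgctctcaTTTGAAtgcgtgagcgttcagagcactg
ATM (chr11:108093752-108093793, plus strand): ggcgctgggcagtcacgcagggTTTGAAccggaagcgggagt
FANCC (chr9:98080212-98080241, minus strand): atTTTGAAcagaatatggaagaagccagcg

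The BRCA axis fell in 4 of its 5 genes, where 23.4% of all genes tested fell. BRIP1, the helicase that binds the BRCT repeats of BRCA1 (chr17:59756500-59940920, minus strand), had 41.6, 39.3 and 35.9 CPM in siControl and 23.2, 23.9 and 21.2 CPM in siNONO. The siNONO libraries all lay below the lowest siControl library, at 58.4% of siControl by the fit (log2 fold change -0.78, standard error 0.0522, edgeR adjusted p = 1.29e-07). BRCA2, which prepares resected DNA for strand exchange (chr13:32889223-32974405, plus strand), went from 44.04, 45.2 and 42.9 CPM to 29.6, 27.8 and 25.5 CPM. This was a mean of 44.1 ± 1.18 CPM (SD, n = 3) against 27.7 ± 2.06 CPM (SD, n = 3), with a log2 fold change of -0.67 (standard error 0.0522, edgeR adjusted p = 4.74e-07). BRCA1, the ubiquitin ligase that favors end resection, fell by 0.44 on the log2 scale (46.7, 50.4 and 47.5 CPM against 34.7, 36.7 and 35.3 CPM, edgeR adjusted p = 5.21e-06). Its obligate partner BARD1 was at 20.6, 21.8 and 21.5 CPM in siControl and 15.1, 15.2 and 12.3 CPM in siNONO (log2 fold change -0.58, edgeR adjusted p = 3.79e-05). The PALB2 transcript, whose protein bridges BRCA1 and BRCA2, was at 23.3 ± 0.460 CPM (SD, n = 3) and 21.6 ± 0.828 CPM (SD, n = 3), and its log2 fold change of -0.11 did not pass the test (edgeR adjusted p = 0.142).

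The result for BARD1 depended on the unit. RSEM gave it a length of 4462, 3741 and 3803 bases in siControl and of 1244, 4599 and 3853 bases in siNONO, so that the siNONO library of Set 1 stood apart. The ratio of BARD1 to BRCA1 in TPM was 0.434, 0.459 and 0.476 in siControl, and 1.88, 0.400 and 0.387 in siNONO. On log2(TPM + 1) its fold change was -0.08 (limma adjusted p = 0.905), whereas its count fell in all 3 Sets. The median over all genes tested was -0.07 on that scale. FANCM also lost its call on that scale, at -0.44 (limma adjusted p = 0.0896) against -0.63 from counts.

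Among the strand-exchange factors, 7 of 8 genes fell and 0 rose, where 23.4% of all genes tested fell and 23.2% rose. Their median log2 fold change was -0.51. RAD51AP1, which stimulates joint formation (chr12:4647964-4669213, plus strand), was at 19.6, 19.1 and 19.1 CPM in siControl and 12.8, 13.2 and 10.6 CPM in siNONO. The gap between the groups was larger than the spread within either (log2 fold change -0.66, standard error 0.0742, edgeR adjusted p = 1.17e-05). RAD54B, a motor protein that remodels the joint, was at 26.6, 28.2 and 24.0 CPM and then 15.6, 17.3 and 17.1 CPM (log2 fold change -0.66, standard error 0.0663, edgeR adjusted p = 4.48e-06). It shares 66.0% of its exon bases with FSBP on the same strand, and with the counts of both genes summed, a step chosen after seeing the data, the log2 fold change was -0.48 (edgeR adjusted p = 1.91e-05). Its relative RAD54L fell by 0.48, and RAD51D and XRCC2, which act together at stalled forks, fell by 0.54 and 0.53. RAD51B fell by 0.34, from 5.51 ± 0.226 CPM (SD, n = 3) to 4.34 ± 0.237 CPM (SD, n = 3).

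XRCC3 and RAD51C form a complex of their own, and the call of each changed in some fits with a library left out. XRCC3 had 31.0, 31.4 and 28.7 CPM in siControl and 22.7, 23.7 and 29.1 CPM in siNONO, with log2 ratios of -0.45, -0.41 and 0.02 in Sets 1, 2 and 3. It shares 76.7% of its exon bases with KLC1 on the other strand. Its groups overlapped in Set 3, and its log2 fold change of -0.28 had an edgeR adjusted p of 0.0104. RAD51C was the gene just outside the threshold, at 35.2, 38.4 and 33.9 CPM against 32.6, 33.7 and 32.6 CPM (log2 fold change -0.12, edgeR adjusted p = 0.0713). Its groups did not overlap. Without the siControl or the siNONO library of Set 3, RAD51C passed the test at -0.14 and -0.15, with a lowest edgeR adjusted p of 0.0366.

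The 3 genes of the dissolution complex that are among the 42 moved in both directions. This complex unwinds double Holliday junctions, and its helicase BLM needs the scaffold RMI1, to which the small subunit RMI2 binds. BLM (chr15:91260577-91359396, plus strand) had 32.6, 34.03 and 30.8 CPM in siControl and 19.8, 22 and 20.3 CPM in siNONO, a log2 fold change of -0.65 (standard error 0.0544, edgeR adjusted p = 9.13e-07). RMI1 fell by 0.64 (41.3 ± 2.47 against 26.6 ± 1.69 CPM, SD, n = 3, edgeR adjusted p = 4.86e-07). RMI2 (ENSG00000175643.10_5, chr16:11343476-11475519, plus strand) instead rose in every Set. It had 8.53, 8.31 and 8.57 CPM in siControl and 11.6, 13.0 and 14.2 CPM in siNONO, 151% of siControl by the fit (log2 fold change 0.60, standard error 0.0842, edgeR adjusted p = 8.07e-05).

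The ratio of RMI2 to RMI1 in TPM shows this split within each library. It was 0.498, 0.509 and 0.574 in siControl and 1.17, 1.22 and 1.49 in siNONO, so that RMI1 was the more abundant transcript in every siControl library and RMI2 in every siNONO library. The mean ratio was 0.527 ± 0.0412 (SD, n = 3) against 1.29 ± 0.176 (SD, n = 3). Its two-sided exact permutation p was 0.1, the smallest that 3 against 3 libraries can give in this test. The permutation ignored the pairing of libraries by Set, for this and every other pair of genes. The same ratio was taken for 8 pairs of partners in all, and none of them can pass 0.05 by this test. The direction of RMI2 to RMI1 follows from the opposite calls of both genes. Each of these ratios restates the levels of its own genes and adds no separate evidence.

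**Figure D2:**
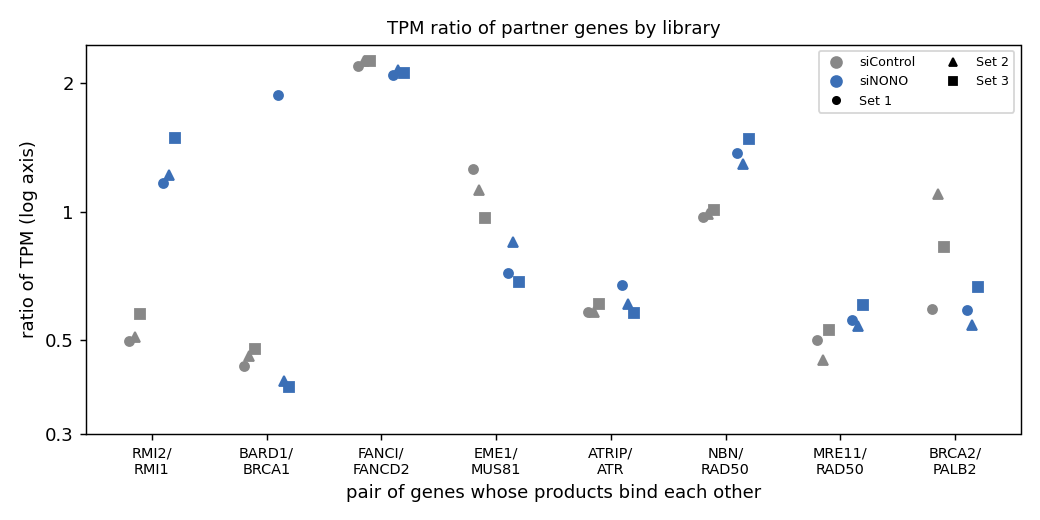
Ratio of TPM within each library for 8 pairs of partner genes (log axis), grey for siControl and blue for siNONO, with a circle, triangle and square for Sets 1, 2 and 3. RMI2/RMI1 lies at 0.498 to 0.574 in siControl and 1.17 to 1.49 in siNONO, and BARD1/BRCA1 in siNONO holds 1 library at 1.88 and the others at 0.387 and 0.400.

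Nucleases that cut joint molecules and forks were lower in 3 of 5 cases, where 23.4% of all genes tested fell. EME1, a partner with which MUS81 cuts (chr17:48450581-48458844, plus strand), had 25.7, 26.8 and 28.6 CPM in siControl and 15.02, 17.5 and 16.8 CPM in siNONO (log2 fold change -0.72, standard error 0.0600, edgeR adjusted p = 8.82e-07). MUS81 itself was at 25.3 ± 2.56 CPM (SD, n = 3) and 25.1 ± 1.70 CPM (SD, n = 3), a log2 fold change of -0.01 (edgeR adjusted p = 0.881). The ratio of EME1 to MUS81 in TPM was accordingly 1.12 ± 0.146 (SD, n = 3) in siControl and 0.751 ± 0.0863 (SD, n = 3) in siNONO, without overlap (two-sided exact permutation p = 0.1, Sets ignored). SLX4, the scaffold that holds these nucleases, fell by 0.55, and the resolvase GEN1 fell by 0.46. FAN1, a nuclease at crosslinks, was at 58.5 ± 1.99 and 60.2 ± 2.21 CPM (SD, n = 3), with a log2 fold change of 0.04 (edgeR adjusted p = 0.461). Both EME1 and MUS81 share exon bases (16.4% and 13.9%) with highly expressed genes on the other strand, LRRC59 and CFL1, whose mean counts went from 9250 to 10800 and from 9810 to 20500. The strand setting of the counting is not given in the sources used here, so the part of opposite-strand reads in these values was not tested. The same holds for XRCC3, which shares 76.7% of its exon bases with KLC1 (mean count 3140 against 2690), for RAD54L, which shares 19.9% with LRRC41, and for FANCA, which shares 19.6% with ZNF276.

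In the Fanconi anemia core complex and its E2, 5 of 9 genes fell, 1 rose and 3 did not pass the test. Over all genes tested, 23.4% fell and 23.2% rose. FANCB, a subunit of the catalytic module with FANCL (chrX:14708510-14891377, minus strand), had the lowest fold change of all 42 with all 6 libraries in the fit, with 9.01, 9.79 and 8.98 CPM in siControl and 5.21, 6.54 and 4.11 CPM in siNONO. It stood at 56.9% of siControl (log2 fold change -0.81, standard error 0.114, edgeR adjusted p = 7.97e-05), and its Sets ranged from -0.58 to -1.13. Without the siControl or the siNONO library of Set 3 it was at -0.68 in both cases, above BRIP1 at -0.78 and POLQ at -0.75 and -0.76. FANCA (chr16:89793091-89883385, minus strand), which with FANCG anchors the complex in the nucleus, went from 83.0, 87.9 and 96.7 CPM to 49.8, 55.7 and 65.0 CPM (log2 fold change -0.66, standard error 0.0412, edgeR adjusted p = 7.05e-08). UBE2T, the E2 that carries the ubiquitin (chr1:202300672-202311112, minus strand), went from 42.4, 46.7 and 44.2 CPM to 24.6, 29.4 and 28 CPM (log2 fold change -0.70, standard error 0.0504, edgeR adjusted p = 2.24e-07). FANCM, the translocase that brings the complex to DNA, fell by 0.63 and FANCG by 0.43.

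The remaining core subunits were not lower by the test. FANCC (chr9:97861336-98189078, minus strand), which sits with FANCE and FANCF in the substrate-binding module, had 17.9, 17.7 and 19.1 CPM in siControl and 22.2, 22.3 and 24.7 CPM in siNONO, and rose to 127% of siControl (log2 fold change 0.34, standard error 0.0573, edgeR adjusted p = 0.00034). On log2(TPM + 1) its difference was 0.08 (limma adjusted p = 0.439), where the median over all genes tested was -0.07. RSEM gave FANCC a longer mean transcript in siNONO in each Set (2934, 2623 and 2634 against 3203, 2802 and 3059 bases). The lengths of the groups overlapped, and their difference did not pass the test (limma adjusted p = 0.453). FANCF had 8.02, 7.81 and 6.74 CPM and then 8.55, 7.44 and 9.39 CPM, with overlapping groups (log2 fold change 0.16, standard error 0.110, edgeR adjusted p = 0.259). FANCL, the E3 ligase of the complex, had 18.7, 17.3 and 16.3 CPM and then 18.9, 19.3 and 16.4 CPM, again overlapping (log2 fold change 0.06, standard error 0.0634, edgeR adjusted p = 0.482). FANCE was at -0.13 (edgeR adjusted p = 0.141).

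Both genes of the clamp that the core complex marks fell. FANCI fell by 0.57 (118 ± 5.81 against 79.5 ± 4.53 CPM, SD, n = 3, edgeR adjusted p = 2.86e-07) and FANCD2 by 0.44 (64.9 ± 2.16 against 48.0 ± 2.02 CPM, SD, n = 3, edgeR adjusted p = 2.23e-06). In TPM, FANCI stayed at more than FANCD2 in every library, with a ratio of 2.24 ± 0.0325 (SD, n = 3) in siControl and 2.12 ± 0.0327 (SD, n = 3) in siNONO. POLQ, the polymerase of theta-mediated end joining, a pathway that joins resected ends when recombination fails (chr3:121150278-121264835, minus strand), had 48.0, 54.2 and 49.4 CPM in siControl and 30.5, 29.8 and 29.2 CPM in siNONO. It was at 59.1% of siControl (log2 fold change -0.76, standard error 0.0518, edgeR adjusted p = 1.45e-07), and it fell in each Set.

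**Figure D3:**
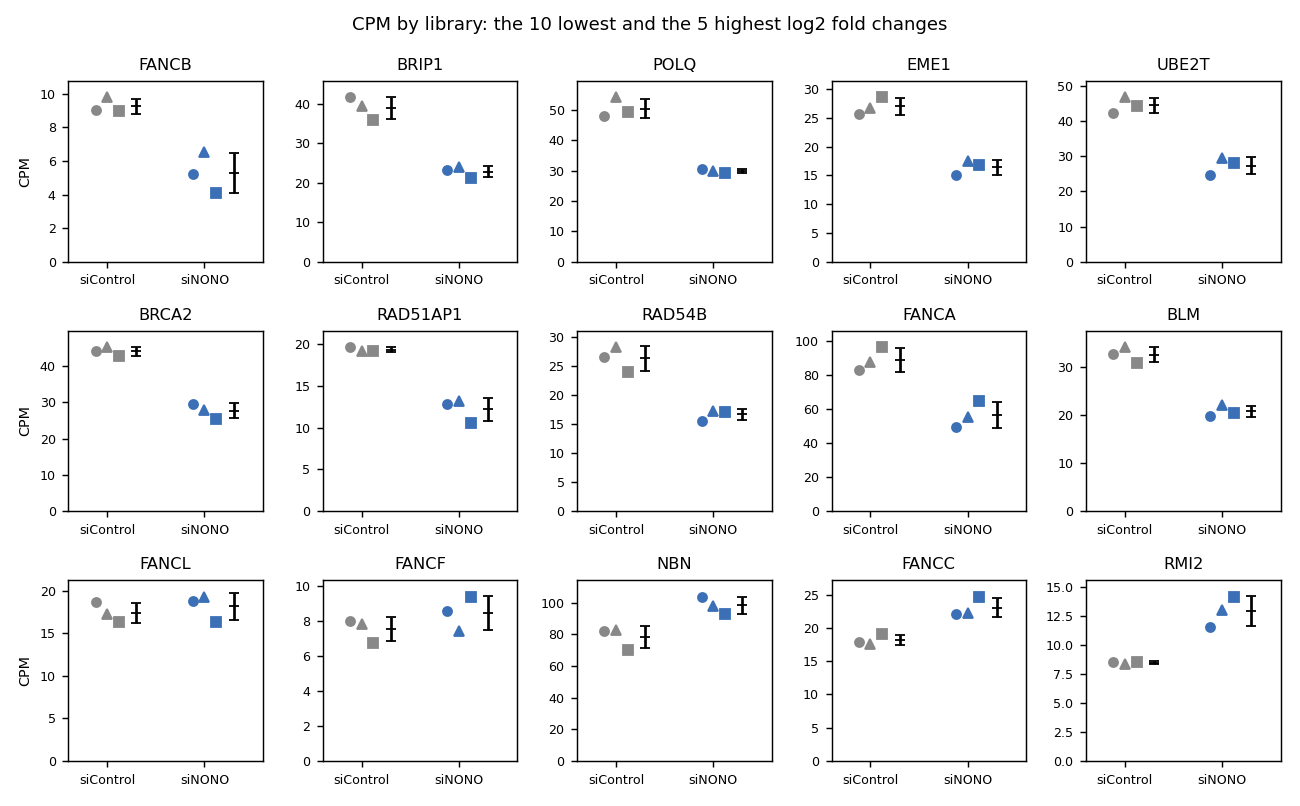
CPM in each library for the 10 genes with the lowest and the 5 with the highest log2 fold change, with a circle, triangle and square for Sets 1, 2 and 3 and bars for the mean ± SD. In the upper 2 rows of panels every siNONO point lies under every siControl point, in the panels of NBN, FANCC and RMI2 every siNONO point lies above, and in those of FANCL and FANCF the groups overlap.

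Of the 5 genes that sense the break and begin resection, 2 fell and 1 rose, with a median log2 fold change of -0.11. With 46.6% of all genes tested called in either direction, these few calls do not set the group apart. The MRN complex of MRE11, RAD50 and NBN tethers broken ends and activates the ATM kinase. NBN rose, from 82.1, 82.8 and 70.2 CPM in siControl to 104, 98.2 and 93.0 CPM in siNONO, 126% of siControl by the fit (log2 fold change 0.33, standard error 0.0391, edgeR adjusted p = 1.96e-05). On log2(TPM + 1) its difference was 0.17 and did not pass the test (limma adjusted p = 0.0992), where the median over all genes tested was -0.07. RAD50 had 99.8, 107 and 83.9 CPM and then 87.2, 91.5 and 82.8 CPM, with overlapping groups and a log2 fold change of -0.15 (edgeR adjusted p = 0.0113). A second annotated gene, ENSG00000283782, shares 76.9% of the exon bases of RAD50 on the same strand, and with both counts summed the log2 fold change was -0.14 (edgeR adjusted p = 0.00499). MRE11 was at -0.11 (edgeR adjusted p = 0.124). The ratio of NBN to RAD50 in TPM was 0.988 ± 0.0193 (SD, n = 3) in siControl and 1.38 ± 0.0922 (SD, n = 3) in siNONO (two-sided exact permutation p = 0.1, Sets ignored). The nuclease-helicase DNA2 fell by 0.19 (edgeR adjusted p = 0.0272), and RBBP8, which encodes the resection factor CtIP, was at -0.00 (edgeR adjusted p = 0.946).

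The 4 genes of the damage kinases and their adaptor included 2 that fell, and the middle of their log2 fold changes, the median, was -0.06. Since 46.6% of all genes tested were called in either direction, 2 of 4 does not set these genes apart. ATM was the gene just inside the threshold, with 108, 104 and 98.8 CPM in siControl and 100.1, 97.7 and 94.0 CPM in siNONO (log2 fold change -0.09, standard error 0.0335, edgeR adjusted p = 0.0422). Its groups overlapped, and the decrease was to 93.9% of siControl. ATR, the kinase of single-stranded DNA, and its adaptor ATRIP were at 0.01 and -0.03 (edgeR adjusted p = 0.866 and 0.694). CHEK1, the checkpoint kinase below ATR, fell by 0.28, from 56.3 ± 2.44 to 46.2 ± 2.25 CPM (SD, n = 3, edgeR adjusted p = 0.00011).

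By DESeq2 with the Set as a block, 24 of the 42 genes were lower and 3 higher, where 18.2% of the 14363 genes given an adjusted p were lower and 18.2% higher. With limma on log2(TPM + 1), 23 were lower and 1, RMI2, was higher, where 21.3% of genes were lower and 9.66% higher. With a pseudocount of 0.1 the same counts of 23 and 1 stood against 21.2% and 9.64%.

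The calls of ATM, RAD50, DNA2, XRCC3 and RAD51B did not hold in every fit with a library left out. With the Set as a block, the partner of the library left out adds almost nothing to the comparison. Each such fit therefore rests on the other Sets, and the 2 libraries of a Set do not give separate checks. Leaving out the siControl or the siNONO library of Set 1 or of Set 2 ended the calls of ATM, RAD50, DNA2 and XRCC3, with edgeR adjusted p up to 0.264, 0.181, 0.233 and 0.0854. RAD51B lost its call without any 1 of the 6 libraries (edgeR adjusted p 0.0765 to 0.140). Without the Set as a block, ATM, RAD50 and DNA2 did not pass the test (edgeR adjusted p = 0.217, 0.154 and 0.0616), which left 25 of 42 genes lower and 3 higher. That fit called 6164 of all 17000 genes in either direction. The other 26 called genes passed the test, in the same direction, whichever library was left out.

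Levels between genes were compared in TPM. The siControl level was highest for UBE2T, at 88.3, 93.7 and 88.9 TPM (90.3 ± 2.96, SD, n = 3), and its siNONO level was 52.8 ± 3.96 TPM (SD, n = 3). RAD51C at 69.8 TPM, FANCA at 66.0 TPM and FANCI at 53.7 TPM followed. The lowest was FANCF, at 3.70, 3.50 and 3.10 TPM (3.43 ± 0.306, SD, n = 3), below FANCB at 5.81 TPM and FANCM at 5.95 TPM. Of the 41 pairs of neighbors in the order of siControl levels, 33 had overlapping library values and cannot be ordered beyond their spread. The 8 pairs without overlap included UBE2T above RAD51C, FANCA above FANCI, and FANCB above FANCF. Across the 42 genes, Spearman's rho of the log2 fold change with the siControl TPM was 0.129 and with the span of the gene 0.0346, both given as descriptions across genes of the same 6 libraries.

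**Figure D4:**
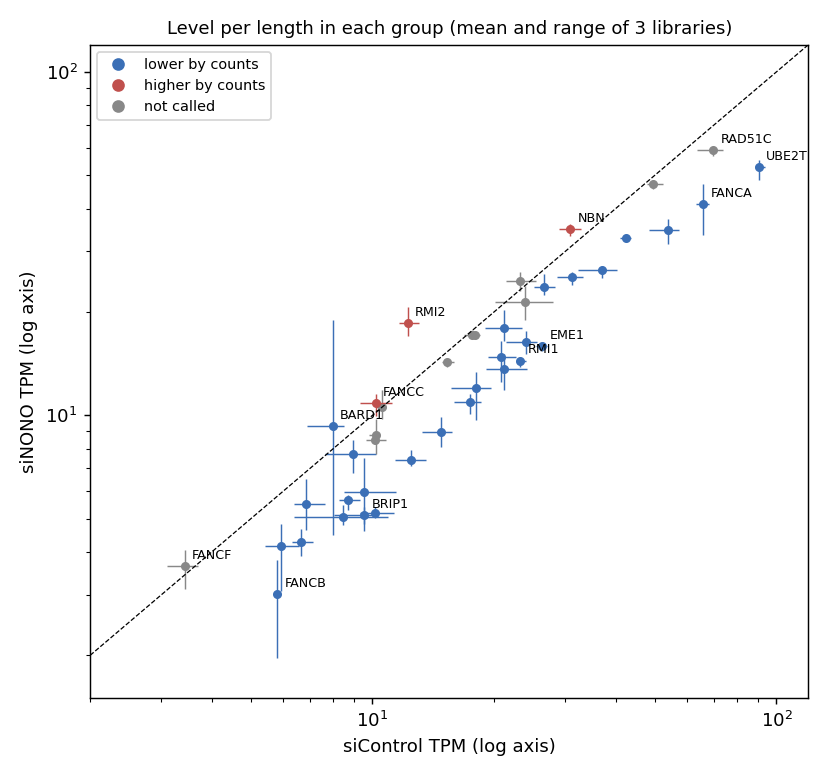
Mean level in siNONO against that in siControl for the 42 genes, both in TPM on log axes, with bars from the lowest to the highest of 3 libraries, a dashed line of equal levels and colors for the call from counts. UBE2T lies farthest right at 90.3 TPM, FANCF farthest left at 3.43 TPM, RMI2 stands above the line, and the long upright bar of BARD1 comes from 1 siNONO library.

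The length that RSEM gives each gene is the mean of its transcripts weighted by abundance, so it moves with the mix of isoforms. Length varied for 40 of the 42 genes. With limma, 0 of them passed an adjusted p of at most 0.05 (lowest 0.436), as was so for 0.0% of the 14129 genes tested, and 5 had an unadjusted p under 0.05, against 9.36% of all genes. Those 5 were BRCA1, FANCL, RAD51AP1, FANCC and MRE11, named after their values were seen, with log2 length differences of 0.13, -0.10, -0.22, 0.15 and -0.09. The lengths of 5 genes did not overlap between the groups, compared with 13.6% of all genes tested.

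Other genes of the same pathways, 52 in all and not among the 42, were counted by the same test. Of them, 24 fell (46.2%), 5 rose and 23 did not pass the test, with a median log2 fold change of -0.13, and 8 fell by at least 0.5. Over all genes tested, 23.4% fell, 23.2% rose and 6.29% fell by at least 0.5. The 4 lowest among those called were the histone of damage foci H2AX, the resection nuclease EXO1, the checkpoint adaptor CLSPN and the foci scaffold MDC1. H2AX went from 145, 151 and 168 CPM to 61.3, 69.2 and 70.4 CPM (log2 fold change -1.20, standard error 0.0374, edgeR adjusted p = 1.56e-10), a log2 fold change below that of each of the 42. EXO1 fell by 0.99 (33.9 against 17.0 CPM), CLSPN by 0.93 (62.0 against 32.6 CPM) and MDC1 by 0.77 (148 against 86.9 CPM).

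The 4 highest of these other genes among those called were ERCC1, REV3L, EME2 and RTEL1. SWSAP1, not called and named after its value was seen, lay between EME2 and RTEL1 at 0.38 (1.75 against 2.30 CPM, edgeR adjusted p = 0.134). ERCC1, a subunit of the nuclease that unhooks crosslinks, went from 59.7, 63.6 and 62.0 CPM to 91.6, 97.8 and 97.0 CPM (log2 fold change 0.63, standard error 0.0358, edgeR adjusted p = 3.44e-08). REV3L, the catalytic subunit of the translesion polymerase zeta, rose by 0.59 (45.9 against 69.1 CPM). EME2, the alternative partner of MUS81, rose by 0.46 (53.6 against 73.7 CPM, edgeR adjusted p = 1.40e-06), while EME1 fell. RTEL1, a helicase that dismantles D-loops, rose by 0.31 in counts (edgeR adjusted p = 0.000149), while its TPM was 21.6 ± 2.93 (SD, n = 3) in siControl and 20.5 ± 1.95 (SD, n = 3) in siNONO. BABAM2, a subunit of the BRCA1-A complex and the remaining gene called higher, was at 0.17 (edgeR adjusted p = 0.0286).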

How the data were processed

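RNA-seq libraries of HCT116 cells (3 siControl, 3 siNONO) were made by the authors from poly(A) RNA with a stranded kit, aligned with STAR to GENCODE on GRCh37 and quantified with RSEM (version 1.3.1). The authors deposited estimated counts, which are not normalized, TPM values, which are scaled by RSEM for length and depth, and RSEM lengths. Total counts were 21765393 to 32659002.

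Counts were rounded and tested with edgeR (version 4.0.16, quasi-likelihood, edgeR 3 form, R 4.3.3) after filterByExpr and TMM scaling, blocking on the Set, and p-values were adjusted by Benjamini-Hochberg over 17000 genes. Standard errors came from the fold change and its F. The Sets paired the libraries, by labels and by correlations of deviations of 0.373, 0.218 and 0.446 for Sets 1, 2 and 3 over 11722 genes. Between libraries of different Sets these correlations ran from -0.364 to 0.132, the highest between siControl of Set 1 and siNONO of Set 2. Lengths were tested with limma (version 3.58.1) over the 14129 genes that passed filterByExpr and whose length varied, and again, as an alternative, over the 10914 with at least 100 counts in every library. DESeq2 (version 1.42.0), limma on log2(TPM + 1) and log2(TPM + 0.1), other scalings, filters and each library left out were alternatives. The test was checked on simulated data with few genes changed, all by at least 0.5 on the log2 scale, and 1 dispersion for every gene. Smaller changes, such as that of ATM, and changes in a large share of genes were not covered by it. Cell-cycle lists came from Seurat (version 5.3.0), and gene positions from a later GENCODE annotation of the same build.

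The 42 genes and all lists were chosen with earlier results of these data known. Values by library were given for NONO, the 10 lowest and 5 highest fold changes, the highest and lowest TPM and the genes either side of the threshold, and others were named by role. BRCA1, BARD1, XRCC3, RAD50, RMI1, MRE11, MUS81, FAN1, PALB2, CHEK1, FANCI, FANCD2 and RAD51B have values beyond this rule.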

Additional observations from a re-analysis of the deposited data

How the results depend on the processing

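Across 675 recomputed fold changes of the 42 genes, 605 stayed on the same side of 0 and of the threshold, and 22 of the 31 called genes (21 lower, 1 higher) kept their call under all 16 alternatives. DESeq2 with the Set as a block called 24 lower and 3 higher, edgeR without the replicate block 25 and 3, library size alone 29 and 3, and no filter on low counts 26 and 3. Over all genes, edgeR called 6164 of 17000 in either direction without the replicate block and 7927 of 17000 by library size alone. Without a filter it called 8116 of 31999. Genes called lower were 23 to 28 of the 42 with each library left out. Over all genes, those fits called from 6497 of 17391 to 7653 of 17404 in either direction. With limma on log2(TPM + 1) or log2(TPM + 0.1), 23 of the 42 were lower and 1, RMI2, was higher, and 3 of the other pathway genes in place of 5 were higher. The median of the 42 was -0.40 on log2(TPM + 1), and -0.44 to -0.39 with each library left out. The S-phase median was -0.50 and -0.52 on the 2 TPM scales and -0.41 without a filter, and the G2/M median -0.74 and -0.76, or -0.65 to -0.62 with each library left out. The median over all genes tested was -0.07 on log2(TPM + 1) and -0.09 on log2(TPM + 0.1), against -0.00 in the main fit. No TMM factors were applied to TPM. The cause of these shifts was not tested. Signs turned only for uncalled genes near 0. ATR was at -0.00694 by library size alone and -0.0652 and -0.0621 with limma (pseudocounts 0.1 and 1), and there ATRIP was at 0.000958 and 0.00119 and FAN1 at -0.0421 and -0.0400. Without a filter, RBBP8 was at 0.0143 and MUS81 at 0.00657. With libraries left out, ATR ran from -0.00671 to 0.0428, ATRIP from -0.0570 to 0.0126, RBBP8 from -0.0249 to 0.0287 and MUS81 from -0.0262 to 0.0192. With 3 libraries a group, the lowest member count in a library was 114, and no exact test of a single ratio can pass 0.05.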
